A study of Mus musculus with 6 samples.

Results

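Integrins are adhesion receptors built from 1 alpha and 1 beta chain, and leukocytes use them to stop on endothelium, to crawl through matrix and to take up opsonized particles. The genes described here encode 10 subunits carried by leukocytes: Itgam, Itgax, Itgal and Itgb2 of the beta 2 family, Itga4, Itga5, Itgb1 and Itgb7, whose dimers bind VCAM-1, MAdCAM-1 and fibronectin, and Itgav and Itgb5, which bind vitronectin and latent TGF-β. They were picked by symbol out of the 46603 genes of the deposited count table, by a rule that names no measured value. Earlier results of these data were known when they were chosen. All 10 were found and passed the filter on low counts. Itgam encodes CD11B, the antigen on which the cells were sorted, so every library comes from cells selected for the protein of this gene. An integrin dimer needs both chains to reach the cell surface, and Itgb2 is the common partner of Itgam (Mac-1), Itgax (CD11c) and Itgal (LFA-1). Mac-1 binds ICAM-1, fibrinogen and the iC3b fragment of complement, and LFA-1 binds the ICAMs.

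RNA-Seq was performed on CD11B+ cells that had been isolated with magnetic beads from kidneys of male mice aged 10 to 12 weeks, on day 3 after bilateral IRI-AKI with 28 minutes of pedicle clamping. PTEC DN RAR mice (n = 3) were PEPCK CRE+ and carried Rosa26-LSL-RARaT403X, a Cre-dependent dominant negative retinoic acid receptor, and Cre- control mice (n = 3) were PEPCK CRE- with the same Rosa26 allele, so all 6 mice carried the allele and all were injured. The PEPCK-Cre line was of mixed 129svJ; C57BL/6 origin, and the Rosa26 line was C57BL/6. PEPCK-Cre acts in PTECs, and the sequenced cells are therefore not the cells in which Cre was meant to act. Each library came from 1 mouse, and between 29318041 and 46517005 reads were counted on genes. Members had at least 2933 reads in every library. Values are CPM, the reads of a gene scaled to a common library size by TMM, and differences are log2 fold changes of PTEC DN RAR over Cre- control, negative where PTEC DN RAR mice were lower, with 1 SE. In bulk samples, fewer cells of a type cannot be told apart from less RNA of a gene per cell.

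As a check of the sort, Ptprc, the gene for the pan-leukocyte antigen CD45, measured 832, 1064 and 949 CPM in Cre- control libraries and 821, 1010 and 805 CPM in PTEC DN RAR libraries, while the T cell gene Cd3e was at no more than 0.717 CPM in any library. The 10 neutrophil markers summed to between 471 and 849 CPM in Cre- controls and between 299 and 426 CPM in PTEC DN RAR mice, and the 8 monocyte markers to between 2402 and 2632 CPM and between 1164 and 1347 CPM. The 8 markers of resident macrophages summed to between 18000 and 21580 CPM and between 25100 and 36590 CPM, but without Cd74, the most abundant of them, the sums overlapped (9962 to 10995 CPM and 9564 to 12830 CPM). Of these markers 2 were higher (Cd74 and Cd81), 1 was lower (Mertk) and 5 did not pass, among them Adgre1, C1qa, C1qb and C1qc. Proximal tubule markers summed to between 636 and 821 CPM in Cre- controls and between 2186 and 3359 CPM in PTEC DN RAR mice, with 12 of 12 past the threshold of 0.05 and higher, and endothelial markers to between 85.5 and 123 CPM and between 258 and 319 CPM, with 8 of 8 higher. Stromal markers summed to between 88.3 and 102 CPM and between 114 and 205 CPM, with 5 of 7 tested higher. Mitochondrial genes took 5.03% to 8.77% of gene counts in Cre- controls and 10.4% to 12.1% in PTEC DN RAR mice. The 24 leukocyte reference genes, which share no gene with the members, summed to between 13940 and 15150 CPM in Cre- controls and between 11270 and 12960 CPM in PTEC DN RAR mice, with 8 of the 23 tested lower, 0 higher and a median log2 fold change of -0.22. Results that turn on this difference are given below also with libraries scaled on those reference genes, which moves the median over all genes tested from 0.04 to 0.27 on the log2 scale. That scaling uses their summed counts, so abundant genes weigh most. Among them is Lcp1, itself lower (means 2836 and 2065 CPM, adjusted p = 0.0214).

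With the threshold for an adjusted p set at 0.05, 3 of the 10 members were lower in PTEC DN RAR mice (Itgam, Itga5 and Itgb7) and 0 were higher, while 7 did not pass. That is 30.0% of members lower, beside 17.1% of all 15440 genes tested called lower, 23.6% called higher and 40.6% called in either direction. At an unadjusted p under 0.05 in edgeR 4 members were lower (Itgb1 in addition) and 1 was higher (Itgal), beside 22.0% and 28.1% of all genes tested. With adjustment DESeq2 called 1 member higher (Itgal) and limma-voom 0, beside 23.0% and 23.1% of all genes higher in those fits. The median log2 fold change of the members was -0.05, against 0.04 over all genes tested. The same 3 members, and no other, had values that did not overlap between genotypes, beside 24.2% of all genes lower, 29.2% higher and 53.4% in either direction without overlap. With the leukocyte reference scaling 1 member was lower (Itgam) and 4 were higher (Itgax, Itgal, Itgav and Itgb5), beside 4.28% of all genes lower and 33.0% higher under that scaling.

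**Figure D1:**
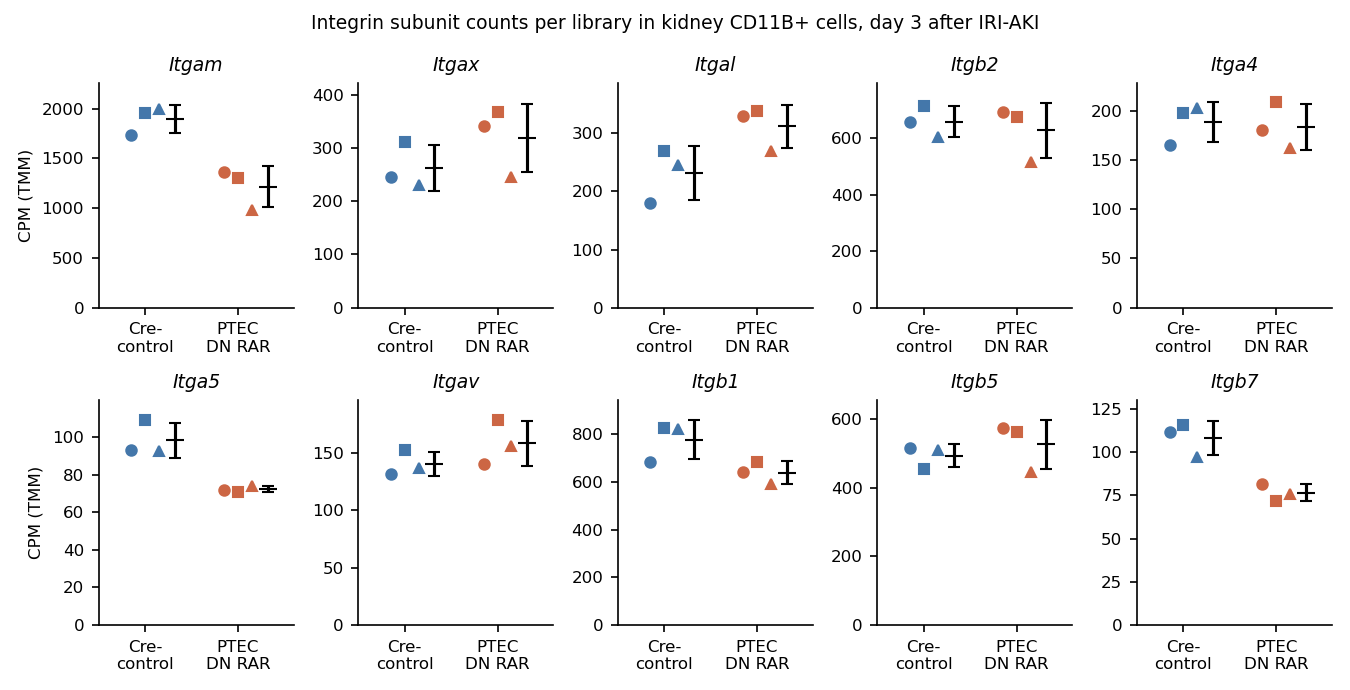
CPM after TMM scaling of the 10 integrin subunit genes, 1 panel per gene on its own linear axis from 0. Each symbol is 1 library (circle, square and triangle for replicates 1 to 3, which are different mice in each genotype), and the bar beside each group is the mean with 1 SD, n = 3. Itgam, Itga5 and Itgb7 are the panels in which every PTEC DN RAR library lies below every Cre- control library.

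The chain that defines the sorted cells was itself among the genes that fell. Itgam (ENSMUSG00000030786, chromosome 7 of GRCm38 from 128062640 to 128118491, plus strand) measured 1737, 1959 and 1995 CPM in Cre- control libraries and 1366, 1303 and 980 CPM in PTEC DN RAR libraries. All Cre- control libraries were above all PTEC DN RAR libraries, and PTEC DN RAR replicate 3 was the lowest of all. The Cre- control mean was 1897 ± 140 CPM and the PTEC DN RAR mean 1217 ± 207 CPM (SD over 3 mice), which is a log2 fold change of -0.64 (SE 0.14, adjusted p = 0.00818), or 0.641 times the Cre- control level. Without PTEC DN RAR replicate 3 the log2 fold change was -0.55 (adjusted p = 0.00984), and with the leukocyte reference scaling it was -0.41 (SE 0.11, adjusted p = 0.0185).

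Itgb2, the beta chain with which Itgam pairs, did not follow it. Itgb2 (ENSMUSG00000000290, chromosome 10 from 77530252 to 77565708) measured 657, 715 and 605 CPM in Cre- control libraries and 693, 677 and 515 CPM in PTEC DN RAR libraries. The ranges overlapped, and PTEC DN RAR replicate 3 alone lay below the Cre- controls. Its log2 fold change was -0.07 (SE 0.13, adjusted p = 0.703). Within each library, the log2 ratio of Itgam to Itgb2 was 1.40, 1.45 and 1.72 in Cre- controls against 0.98, 0.94 and 0.93 in PTEC DN RAR mice. This ratio does not depend on how libraries are scaled, and it was lower in all 3 PTEC DN RAR libraries, by -0.58 on average (exact permutation p = 0.1, two-sided, which no comparison of 3 with 3 mice can go below, and 0.15 after adjustment over 9 ratios).

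Of the remaining alpha chains of Itgb2, Itgax and Itgal had positive log2 fold changes that did not pass the test. Itgax (ENSMUSG00000030789, chromosome 7 from 128129547 to 128150657), which lies next to Itgam in the same orientation and encodes CD11c, a chain of dendritic cells and many tissue macrophages, measured 245, 312 and 230 CPM in Cre- control libraries and 342, 367 and 246 CPM in PTEC DN RAR libraries. PTEC DN RAR replicates 1 and 2 were above all Cre- controls, and replicate 3 lay among them. Its log2 fold change was 0.28 (SE 0.17, adjusted p = 0.215). Itgal (ENSMUSG00000030830, chromosome 7 from 127296260 to 127335138), which encodes CD11a, measured 180, 270 and 246 CPM in Cre- control libraries and 329, 338 and 269 CPM in PTEC DN RAR libraries. The groups overlapped only between Cre- control replicate 2 and PTEC DN RAR replicate 3. The log2 fold change of Itgal was 0.43 (SE 0.16, adjusted p = 0.0576), a value close to the threshold that passed without Cre- control replicate 2 (0.51, adjusted p = 0.0459), with DESeq2 (adjusted p = 0.0472), without a filter on low counts (adjusted p = 0.0362), with at least 10 counts in every library (adjusted p = 0.0459) and with the leukocyte reference scaling (0.66, adjusted p = 0.00397), within a range of 0.00397 to 0.155 over all alternatives. Relative to Itgb2 in the same library, both were higher in all 3 PTEC DN RAR libraries. The log2 ratio of Itgax to Itgb2 was -1.42, -1.20 and -1.39 in Cre- controls against -1.02, -0.88 and -1.07 in PTEC DN RAR mice, and that of Itgal to Itgb2 was -1.87, -1.40 and -1.30 and then between -1.07 and -0.94 (exact two-sided permutation p = 0.1 for both, adjusted p = 0.15).

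The shares of the alpha chains that pair with Itgb2 did not overlap between genotypes for Itgam, Itgax or Itgal, in a design whose exact test cannot pass 0.05. Divided by merged exon length, Itgam made up 81.5%, 78.6% and 82.3% of the summed level of Itgam, Itgax, Itgal and Itgad in Cre- control libraries and 69.1%, 67.0% and 67.9% in PTEC DN RAR libraries. Its share was 80.8% ± 1.94 and 68.0% ± 1.10 (SD, n = 3 each), a difference of -12.8 percentage points (exact two-sided permutation p = 0.1). Itgax went from 11.7% ± 1.61 to 18.6% ± 1.04 and Itgal from 7.50% ± 0.95 to 13.4% ± 0.77 of the same sum (exact permutation p = 0.1 for each). Shares in a library add up to a fixed whole, so a fall in Itgam alone raises the other shares. The 3 comparisons are therefore not independent results. The sum itself was 468 ± 38.1 CPM per kb in Cre- controls and 356 ± 59.6 CPM per kb in PTEC DN RAR mice. Itgad, which encodes the fourth alpha chain of Itgb2, had 4 reads in each Cre- control library and 17, 20 and 4 reads in the PTEC DN RAR libraries, and did not pass the filter on low counts. Some markers of several other cells moved with this mix. Of the tested markers, 6 of 7 for monocytes and 5 of 10 for neutrophils were lower, as were 2 of 4 for platelets (Pf4 by -3.10 and Ppbp by -4.35 on the log2 scale). The other tested platelet genes did not pass, Treml1 (means 0.285 and 0.269 CPM, adjusted p = 0.882) and Tubb1 (0.444 and 0.338 CPM, adjusted p = 0.619). Gp9, Gp1bb, Gp1ba and Gp6 did not pass the filter on low counts. Of 8 dendritic cell markers 4 were higher (Xcr1, Clec9a, Dpp4 and Siglech), 1 was lower (Ccr7) and 3 did not pass (Flt3, Cd209a and Zbtb46). The sums of the list overlapped, at 126 to 180 CPM and 156 to 203 CPM. Of all genes tested, 17.1% were lower and 23.6% higher. The B cell list had 2 of 5 tested genes higher (Ighm and Cd79b). Their part in the result was not tested.

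**Figure D2:**
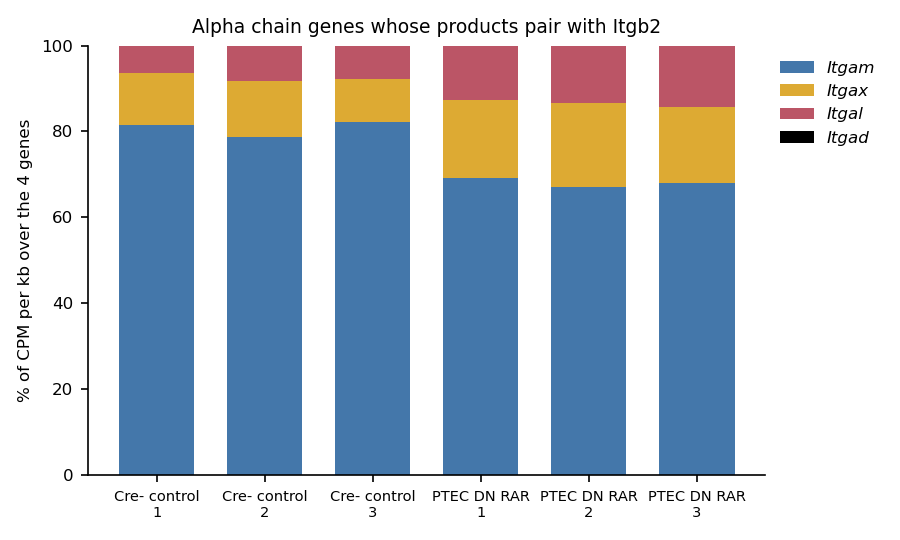
Share of each alpha chain gene in the summed level (CPM per kb of exon) of the 4 genes whose products pair with Itgb2, 1 stacked bar per library. Itgam takes between 78.6% and 82.3% in Cre- control libraries and between 67.0% and 69.1% in PTEC DN RAR libraries, and Itgad is too low to be seen.

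The sequences 5′ of the start sites of the 3 genes that fell, and of Itgax, which lies beside Itgam and did not pass the test, are shown so that the starts of these genes can be read beside their values. Each line gives 120 bases up to the base before the RefSeq start site on GRCm38.p6, 5′ to 3′ on the strand of the gene, and capitals mark GAGGAA, or its reverse complement TTCCTC, the core recognized by the myeloid ETS factor PU.1.
Itgam, chr7:128062520-128062639, plus strand: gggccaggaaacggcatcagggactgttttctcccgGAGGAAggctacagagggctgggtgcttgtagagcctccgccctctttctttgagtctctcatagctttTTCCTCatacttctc
Itgax, chr7:128129430-128129549, plus strand: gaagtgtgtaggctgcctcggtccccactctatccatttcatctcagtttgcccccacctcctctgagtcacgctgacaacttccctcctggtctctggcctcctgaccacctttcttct
Itga5, chr15:103366792-103366911, minus strand: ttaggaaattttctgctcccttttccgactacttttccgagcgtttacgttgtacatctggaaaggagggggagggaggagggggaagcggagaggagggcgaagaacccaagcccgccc
Itgb7, chr15:102231936-102232055, minus strand: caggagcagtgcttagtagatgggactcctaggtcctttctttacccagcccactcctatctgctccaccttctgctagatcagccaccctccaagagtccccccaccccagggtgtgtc
The Itgam window holds 2 such cores, 1 on each strand, and the windows of Itgax, Itga5 and Itgb7 hold 0. Of the 8 members with a RefSeq promoter (Itgal and Itgb2 had no entry), 3 hold at least 1 core (Itgam, Itgav and Itgb1), beside 11.6% of all 32851 promoters in a window of this length. The RefSeq starts of Itgax and Itga5 are not starts of a GENCODE transcript. A match describes the letters in the window and does not show that a factor binds there.

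Itga4, Itga5, Itgb1 and Itgb7 encode the chains by which monocytes and lymphocytes bind VCAM-1 (alpha 4 beta 1), MAdCAM-1 (alpha 4 beta 7) and fibronectin (alpha 5 beta 1). Itga5 (ENSMUSG00000000555, chromosome 15 from 103344286 to 103366763, minus strand) measured 93.2, 109 and 92.9 CPM in Cre- control libraries and 71.9, 71.1 and 74.0 CPM in PTEC DN RAR libraries. The PTEC DN RAR values lay close together, and all were below the Cre- controls. The log2 fold change of Itga5 was -0.44 (SE 0.09, adjusted p = 0.00538). With the leukocyte reference scaling it was -0.20 (adjusted p = 0.171), which does not pass.

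Itgb7 (ENSMUSG00000001281, chromosome 15 from 102215995 to 102231944, minus strand), which encodes the beta chain of alpha 4 beta 7 and alpha E beta 7, measured 112, 116 and 96.9 CPM in Cre- control libraries and 81.8, 72.0 and 76.0 CPM in PTEC DN RAR libraries. Again all PTEC DN RAR values were below all Cre- control values. The log2 fold change of Itgb7 was -0.50 (SE 0.10, adjusted p = 0.00444), the smallest adjusted p among the members, and -0.26 (adjusted p = 0.0933) with the leukocyte reference scaling. Of its alpha partners, Itga4 (ENSMUSG00000027009, chromosome 2 from 79255426 to 79333123) measured 165, 197 and 203 CPM in Cre- control libraries and 180, 208 and 162 CPM in PTEC DN RAR libraries, with a log2 fold change of -0.04 (SE 0.12, adjusted p = 0.83). The highest and the lowest Itga4 values were both in PTEC DN RAR libraries, and the groups overlapped fully. Itgae, the alpha chain of the alpha E beta 7 dimer of intraepithelial lymphocytes and some dendritic cells, was at 1.64 to 2.19 CPM in Cre- control libraries and 1.93 to 2.60 CPM in PTEC DN RAR libraries (log2 fold change 0.22, adjusted p = 0.465).

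Itgb1 (ENSMUSG00000025809, chromosome 8 from 128685654 to 128733200), the beta chain shared by Itga4, Itga5 and most matrix-binding alpha chains, measured 682, 826 and 821 CPM in Cre- control libraries and 643, 684 and 589 CPM in PTEC DN RAR libraries. Cre- control replicate 1 lay among the PTEC DN RAR values, below the other Cre- controls. The log2 fold change of Itgb1 was -0.28 (SE 0.11, adjusted p = 0.0731), which passed without Cre- control replicate 1 (-0.37, adjusted p = 0.0242), with DESeq2 (adjusted p = 0.0165), with DESeq2's size factors in edgeR (adjusted p = 0.0394) and without a filter on low counts (adjusted p = 0.04), and was -0.04 (adjusted p = 0.771) with the leukocyte reference scaling. Within libraries, the log2 ratio of Itgb7 to Itga4 was -0.56, -0.77 and -1.06 in Cre- controls against -1.14, -1.53 and -1.09 in PTEC DN RAR mice, lower in the latter without overlap (exact two-sided permutation p = 0.1, adjusted p = 0.15). That of Itga4 to Itgb1 was -2.05, -2.07 and -2.02 and then -1.84, -1.72 and -1.86, higher without overlap (exact permutation p = 0.1, adjusted p = 0.15). The ratio of Itga5 to Itgb1 differed by -0.16 and that of Itgb7 to Itgb1 by -0.22, with overlapping values (exact permutation p = 0.2 and p = 0.3).

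The vitronectin receptor chains Itgav and Itgb5 overlapped between genotypes and did not pass the test. Itgav (ENSMUSG00000027087, chromosome 2 from 83724397 to 83806916), which encodes the alpha chain of the receptors that release active TGF-β from its latent complex, measured 132, 152 and 137 CPM in Cre- control libraries and 140, 179 and 156 CPM in PTEC DN RAR libraries. PTEC DN RAR replicates 2 and 3 were above all Cre- controls, and replicate 1 lay among them. Its log2 fold change was 0.17 (SE 0.11, adjusted p = 0.234), and 0.41 with the leukocyte reference scaling (SE 0.12, adjusted p = 0.0225). Itgb5 (ENSMUSG00000022817, chromosome 16 from 33829665 to 33949338), which with Itgav forms a receptor used in the uptake of apoptotic cells, measured 516, 456 and 510 CPM in Cre- control libraries and 574, 564 and 445 CPM in PTEC DN RAR libraries. The lowest value of all was PTEC DN RAR replicate 3 and the 2 highest were the other PTEC DN RAR libraries. The log2 fold change of Itgb5 was 0.10 (SE 0.12, adjusted p = 0.547), and its ratio to Itgav differed by -0.08 on the log2 scale with overlapping values (exact two-sided permutation p = 0.8). By contrast the ratio of Itgav to Itgb1 was higher in all 3 PTEC DN RAR libraries, at -2.20, -1.94 and -1.92 against -2.37, -2.44 and -2.58 on the log2 scale (exact permutation p = 0.1, adjusted p = 0.15).

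**Figure D3:**
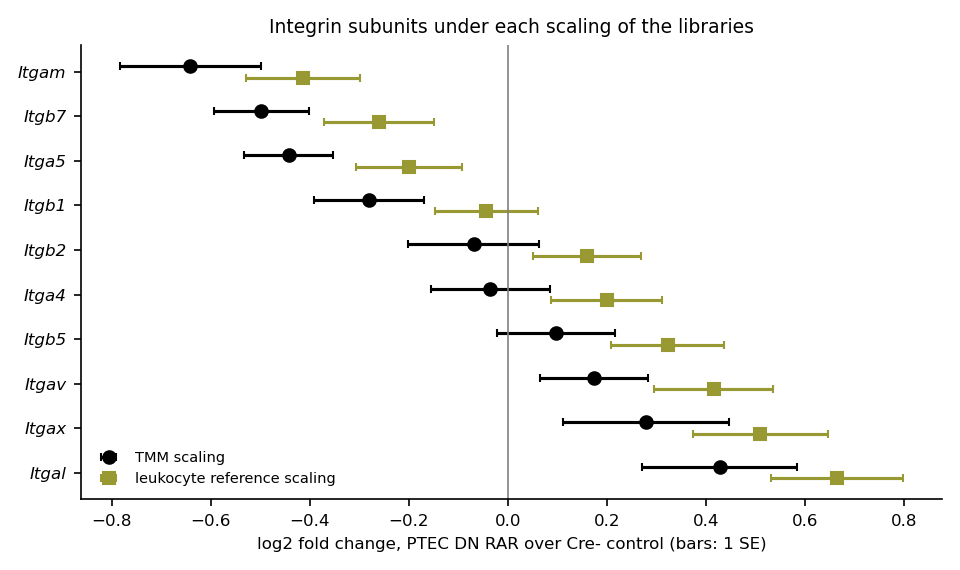
Log2 fold changes of the 10 members (PTEC DN RAR over Cre- control), with bars of 1 SE, under TMM scaling (black circles) and with libraries scaled on 24 leukocyte reference genes (squares). The second scaling moves every member to the right by a similar amount, so that Itgam stays below 0 at -0.41 and Itgal reaches 0.66.

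Compared per kilobase of exon, Itgam had the highest level of the 10 members in Cre- controls, at 378 ± 27.8 CPM per kb (SD, n = 3), followed by Itgb2 at 216 ± 18.1, Itgb1 at 190 ± 20.1 and Itgb5 at 139 ± 9.31 CPM per kb. Levels then dropped to 54.7 ± 9.04 CPM per kb for Itgax, 39.1 ± 3.57 for Itgb7, 35.3 ± 7.13 for Itgal and 19.9 ± 1.86 for Itga5, and the lowest were Itga4 at 13.5 ± 1.46 and Itgav at 13.1 ± 0.981 CPM per kb. Neighbours in this order overlapped in 3 of 9 places, between Itgb2 and Itgb1, between Itgb7 and Itgal, and between Itga4 and Itgav. In PTEC DN RAR mice 5 of 9 neighbours overlapped, a count that was 2 when replicate 2 was left out and 3 when replicate 3 was. There the range of Itgam (242 ± 41.2 CPM per kb) met that of Itgb2 (206 ± 32.2) through replicate 3, which was low for both, although Itgam was above Itgb2 within each library (272 and 227, 259 and 222, 195 and 169 CPM per kb), Itgb1 (157 ± 11.7) overlapped with Itgb5 (149 ± 20.2), and Itgal (47.5 ± 5.71) stood above Itgb7 (27.6 ± 1.80) without overlap, in place of the overlap seen in Cre- controls. Of the 50-base stretches of Itgax transcripts, 8.02% also occur in Itgad, and of those of Itgam, 66.3% also occur in Gm49368, an overlapping gene model that is not in the count table. Multiply aligned reads were kept apart from the gene counts. How the counting treated reads over Gm49368 is not given in the sources used here.

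**Figure D4:**
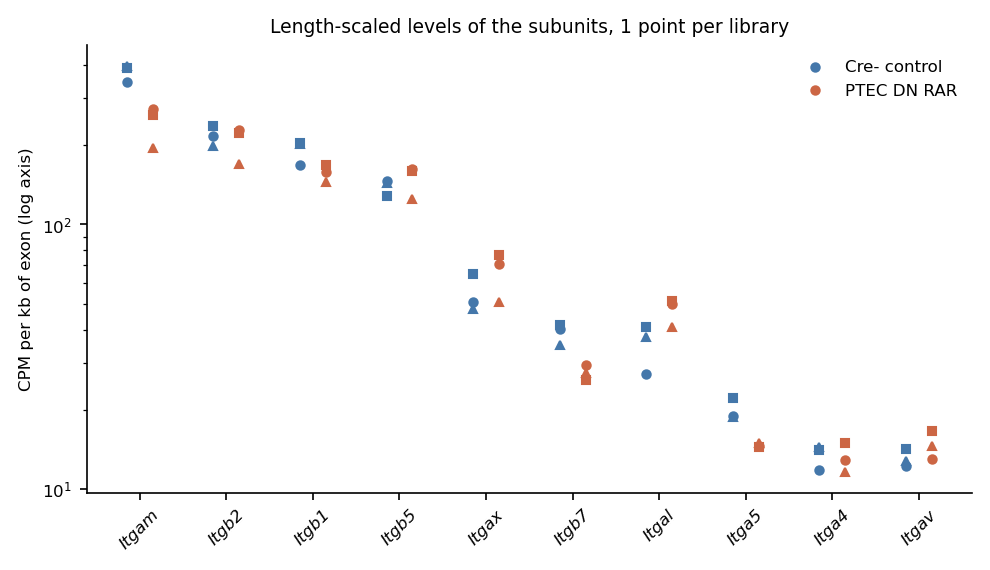
Level of each member per kilobase of merged exon (CPM per kb, log axis), 1 symbol per library, in the order of the Cre- control means. Itgam is at 346 to 397 CPM per kb in Cre- control libraries and 195 to 272 CPM per kb in PTEC DN RAR libraries, where replicate 3 brings its range to meet that of Itgb2.

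The genes whose profile over the 6 libraries was closest to that of Itgam were sought among 8992 genes with a mean of at least 10 CPM, by the root mean square distance between log2 CPM centred on each gene's mean. The closest were Pilrb1 (0.06), Pilra (0.07) and Tlr13 (0.07), followed by Gdf3 (0.08) and Syce2 (0.10). Pilra encodes an inhibitory receptor of myeloid cells and measured 160, 169 and 162 CPM in Cre- control libraries and 114, 105 and 80.9 CPM in PTEC DN RAR libraries. Tlr13, which encodes an endosomal sensor of bacterial ribosomal RNA, measured 358, 420 and 418 CPM and then 281, 252 and 222 CPM. The 6 libraries fall into 2 genotypes that differ in Itgam, so such likeness includes that difference.

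Of the other 17 integrin genes, most of them expressed outside leukocytes, 15 could be tested. Of these, 6 (40.0%) were higher in PTEC DN RAR mice and 1 (6.67%) was lower, beside 23.6% and 17.1% of all genes, with a median log2 fold change of 0.70 beside 0.04. The one lower gene, Itga6, encodes the alpha chain of laminin receptors and was the most abundant of this list by the mean of each genotype. In PTEC DN RAR replicate 2 Itga9 was above it (227 against 199 CPM). Itga6 measured 307, 313 and 356 CPM in Cre- control libraries and 221, 199 and 192 CPM in PTEC DN RAR libraries, without overlap (log2 fold change -0.67, SE 0.10, adjusted p = 0.00129). Itga1, a collagen receptor chain of mesenchymal and endothelial cells and of some T cells, was at 10.2 to 10.4 CPM in Cre- controls and rose to 20.1, 25.4 and 27.1 CPM (log2 fold change 1.23, SE 0.13, adjusted p = 0.000407). Of the beta chains that pair with Itgav, Itgb8 rose most, from 8.69, 6.31 and 9.22 CPM to 19.6, 31.0 and 21.9 CPM (log2 fold change 1.58, SE 0.21, adjusted p = 0.000871). Itgb3 rose from 2.95, 2.48 and 3.71 CPM to 5.35, 4.76 and 4.89 CPM (adjusted p = 0.0186), a call that was lost without Cre- control replicate 2 (adjusted p = 0.0723) or without PTEC DN RAR replicate 1 (adjusted p = 0.0629). Itgb6, an epithelial chain, was at 6.41 to 10.2 CPM and 9.10 to 20.1 CPM and did not pass (adjusted p = 0.0816). It passed without PTEC DN RAR replicate 2 (adjusted p = 0.0254), with the replicate block (0.0348), with the leukocyte reference scaling (0.0425) and without a filter (0.0427), and the adjusted p reached 0.35 without PTEC DN RAR replicate 3. Itga3, a laminin receptor chain of tubules and podocytes, rose by 0.80 on the log2 scale (adjusted p = 0.0126, and 0.0508 without PTEC DN RAR replicate 3). The proximal tubule and endothelial markers given above, and 5 of the 7 tested stromal markers, were higher in the same libraries. Their part in these differences was not tested. Of the summed level per kb of the beta chains that pair with Itgav, Itgb6 made up at most 1.03%, Itgb8 at most 0.847% and Itgb3 at most 0.301% in any library, while Itgb1 and Itgb5 made up 57.3% ± 3.96 and 42.0% ± 3.82 in Cre- controls, against 50.6% ± 1.87 and 47.8% ± 2.21 with PTEC DN RAR.

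Integrins bind their ligands firmly only after talin and a kindlin have bound the beta tail, a step driven by the small GTPase Rap1 and its effector RIAM. Of 25 genes for such activators and tail-binding proteins, 6 (24.0%) were lower and 5 (20.0%) higher in PTEC DN RAR mice, beside 17.1% and 23.6% of all genes, with a median log2 fold change of -0.18. The lower count was 11 with DESeq2 and 10 with its size factors in edgeR, beside 21.2% and 20.0% of all genes lower in those fits. The lower ones with the smallest adjusted p were Apbb1ip, which encodes RIAM (227, 261 and 212 CPM against 172, 159 and 156 CPM, log2 fold change -0.53, adjusted p = 0.00415), Parvg, a hematopoietic parvin (-0.57, adjusted p = 0.00536), Rap1b (634, 776 and 755 CPM against 530, 535 and 462 CPM, -0.50, adjusted p = 0.00835) and Rap1a (-0.44, adjusted p = 0.00922). With the leukocyte reference scaling 2 of the list were lower, Apbb1ip (-0.29, adjusted p = 0.0492) and Parvg (-0.34, adjusted p = 0.0327), and Rap1b was at -0.27 (adjusted p = 0.063) and Rap1a at -0.20 (adjusted p = 0.213). Within the families of talins, kindlins and parvins, the genes of hematopoietic cells and those of other tissues are given side by side. Tln1, the talin of leukocytes, measured 1272, 1468 and 1297 CPM and 1393, 1407 and 1245 CPM (log2 fold change 0.00, adjusted p = 0.984), whereas Tln2 rose from 18.4, 15.9 and 19.1 CPM to 57.3, 61.7 and 64.0 CPM (1.78, adjusted p = 0.000115). Fermt3, the kindlin of hematopoietic cells, was at 405, 359 and 371 CPM and 343, 298 and 294 CPM (-0.28, adjusted p = 0.0479). That call was lost with the leukocyte reference scaling (-0.05, adjusted p = 0.765), with at least 10 counts in every library (0.063), without Cre- control replicate 1 (0.103) or 3 (0.0662), and without PTEC DN RAR replicate 2 (0.136) or 3 (0.0725). Fermt1 and Fermt2, the kindlins of epithelia and of most other tissues, rose by 1.55 (adjusted p = 0.000357) and 1.14 (adjusted p = 0.00175) on the log2 scale. Of the remaining parvins, Parva rose by 1.13 (adjusted p = 0.00126), and Parvb did not pass (-0.18, adjusted p = 0.0978), although its values were lower in PTEC DN RAR mice without overlap. Parvb passed with DESeq2 (adjusted p = 0.038) and with its size factors in edgeR (0.0435), and was at 0.05 (adjusted p = 0.7) with the leukocyte reference scaling. The proximal tubule and endothelial markers, and 5 of the 7 tested stromal markers, were higher in the same libraries. Their part in the higher genes of this list and of the ligands was not tested.

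Of 22 genes for ligands and counter-receptors of integrins, 19 could be tested, and 5 (26.3%) were lower and 8 (42.1%) higher in PTEC DN RAR mice, beside 17.1% and 23.6% of all genes, with a median log2 fold change of 0.46. Without Cre- control replicate 3 the count of higher ligands was 3, in a fit that called 15.2% of all genes higher. The genes named among those that fell include matrix proteins. Fn1, the gene for fibronectin, which is the ligand of alpha 5 beta 1, fell from 1230, 1711 and 1221 CPM to 509, 422 and 264 CPM (log2 fold change -1.80, SE 0.24, adjusted p = 0.000933), and Thbs1, the gene for thrombospondin 1, fell from 1714, 1108 and 1996 CPM to 436, 350 and 533 CPM (-1.87, SE 0.23, adjusted p = 0.000691). Both stayed lower with the leukocyte reference scaling, at -1.58 and -1.63. Spp1 also fell, from 2510, 1851 and 2639 CPM to 1393, 897 and 1745 CPM (-0.795, adjusted p = 0.0268). With the leukocyte reference scaling Spp1 was at -0.55 (adjusted p = 0.124), which does not pass. Nrros, which encodes a protein that tethers latent TGF-β on myeloid cells, fell from 334, 307 and 323 CPM to 193, 204 and 211 CPM (-0.67, adjusted p = 0.000709), while Lrrc32, which encodes a protein with the same role on regulatory T cells, platelets and endothelium, rose from 10.3, 8.69 and 7.60 CPM to 13.3, 13.8 and 15.8 CPM (0.69, adjusted p = 0.00712). Icam1, the ligand of Mac-1 and LFA-1, was at 146, 121 and 127 CPM and 105, 101 and 103 CPM (-0.35, adjusted p = 0.0151, and -0.12 with adjusted p = 0.479 under the leukocyte reference scaling). Vcam1, the ligand of alpha 4 beta 1, rose by 0.91 (adjusted p = 0.0221), a call lost without Cre- control replicate 1 (0.0645), without Cre- control replicate 3 (0.0945) or without PTEC DN RAR replicate 2 (0.0587). C3, the source of iC3b, rose by 0.46 (adjusted p = 0.0138), a call lost without Cre- control replicate 3 (0.0758) or without PTEC DN RAR replicate 3 (0.0624). Also among those that rose were the junctional proteins F11r (78.2, 74.9 and 64.1 CPM to 105, 122 and 108 CPM, adjusted p = 0.00232) and Jam3 (2.92, 2.28 and 1.58 CPM to 4.85, 6.93 and 5.04 CPM, adjusted p = 0.00501), and Mfge8, which bridges Itgav receptors and apoptotic cells (47.5, 37.3 and 37.8 CPM to 60.4, 52.7 and 66.4 CPM, adjusted p = 0.00924, and 0.0572 without Cre- control replicate 3).

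**Figure D5:**
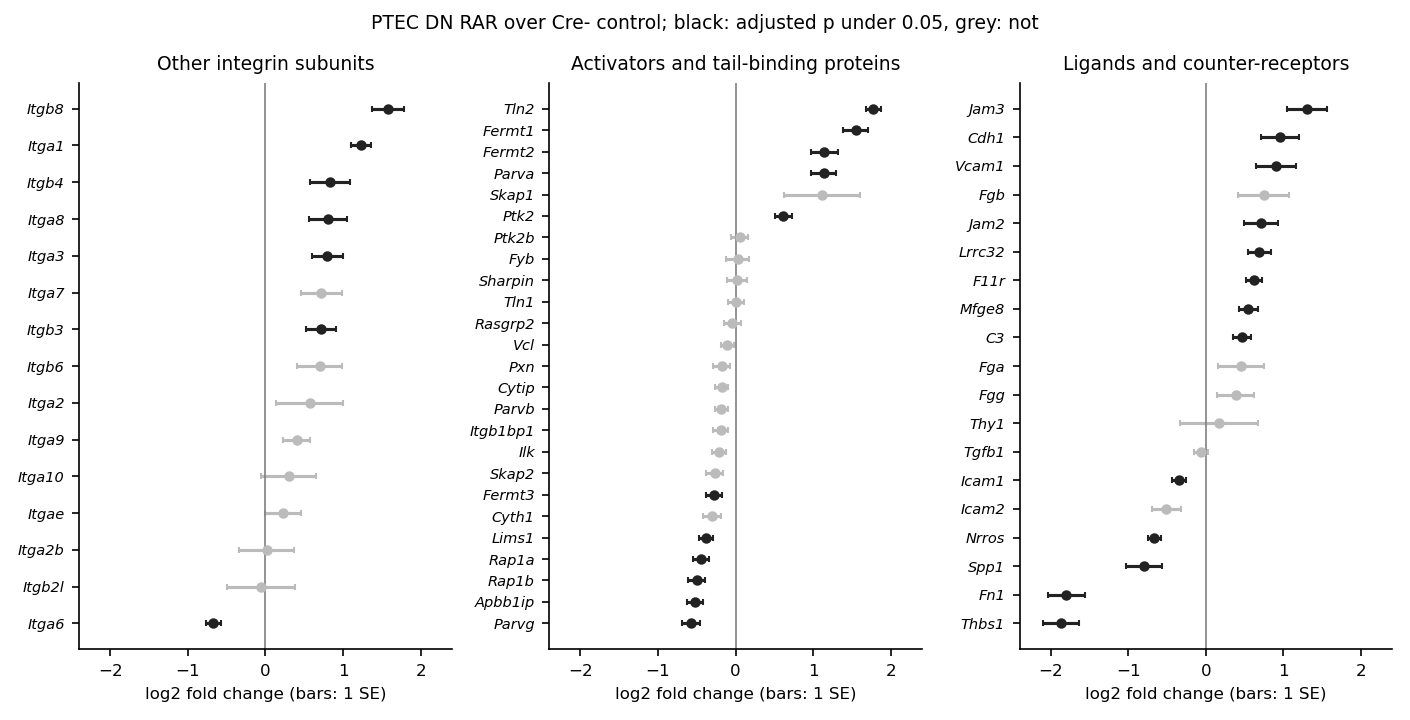
Log2 fold changes (PTEC DN RAR over Cre- control, bars of 1 SE) of the tested genes of 3 lists, the other integrin subunits, the activators and tail-binding proteins, and the ligands and counter-receptors. Black points passed the threshold of 0.05 in edgeR, and Itga6 at -0.67 is the only black point below 0 among the other subunits.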

How the data were processed

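CD11B+ cells of 3 PTEC DN RAR and 3 Cre- control mice gave 1 library each. The authors deposited raw read counts per Ensembl gene, and no other sample is in the table. The submitters' processing notes name STAR 2.5.0a, HTSeq 0.6.1 and build GRCm38, and strand use is not given in the sources used here, so reads of Itga4 and Itgav that overlap the opposite-strand genes Cerkl and Gm13684 are uncertain. Summary lines (unassigned or multiply aligned reads), 46.4% to 50.6% of each library, were left out, and 9 repeated lines of 46612 were collapsed. filterByExpr removed low genes, and TMM-scaled libraries were compared by edgeR 4.0.16 (glmQLFit and glmQLFTest, R 4.3.3), Benjamini-Hochberg adjusted over 15440 genes, and no covariate, and every adjusted p is from this fit unless another tool is named. An SE is the size of a log2 fold change divided by the square root of F. Ratios use log2 CPM with a prior count of 2 and two-sided exact permutation tests. Merged exon lengths and positions come from GENCODE M21 (GRCm38), and promoters from RefSeq (GRCm38.p6). At this depth 3 reads are 0.0645 to 0.102 CPM. Libraries of 1 genotype differed by at least 27.8 in chi-square per degree of freedom, so none was entered more than once.

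Members and lists were chosen with earlier results of these data known. Named beyond the members were the 4 genes with the smallest adjusted p in each direction of each list, partners of members in dimers, Ptprc, and the 5 profiles closest to Itgam. Tln1, Fermt3, Parvb, Vcam1, C3, Spp1, Itga9, Cd3e and the marker genes named were added after their values were seen, and so was the macrophage sum without Cd74. Alternatives were DESeq2 1.42.0, limma-voom (limma 3.58.1), size factors, library size or leukocyte reference scaling, other filters (none, or at least 10 counts in every library), a replicate block, a prior count of 0.25, and each mouse left out. Tests were tried on simulated counts. Python 3.11, scipy 1.17.1 and matplotlib 3.10.9 were used.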

Additional observations from a re-analysis of the deposited data

How the results depend on the processing

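With the leukocyte reference scaling, 661 genes in all were lower and 5092 higher in place of 2636 and 3640, and among members 1 was lower and 4 higher, among activators 2 were lower and among ligands 3 were lower. With DESeq2, 11 activators were lower and 1 member was higher, beside 21.2% of all genes lower and 23.0% higher, and with size factors in edgeR 10 activators were lower, beside 20.0% of all genes. Without a filter, and with at least 10 counts in every library, 1 member (Itgal) was higher, beside 14.1% and 24.7% of all genes. With DESeq2, with size factors in edgeR and without a filter 4 members were lower, Itgb1 in addition. Without a filter 10.8% of all genes were lower. The fit without Cre- control replicate 1 also had 4 members lower, beside 17.7% of all genes. Leaving out each mouse gave from 0 to 1 members higher (1 without Cre- control replicate 2, beside 17.8% of all genes). It gave from 3 to 8 ligands higher (3 without Cre- control replicate 3, beside 15.2% of all genes). The difference in the ratio of Itgb5 to Itgav ranged from -0.23 to 0.033 (the latter without PTEC DN RAR replicate 3). Overlapping neighbours in the order of levels in PTEC DN RAR mice numbered from 2 to 5. Member fold changes kept direction and side of the threshold in 121 of 140 alternative fits, lost the call in 2, gained it in 12 and changed sign in 5, all 5 without a call. Those were Itgb2 (0.16) and Itga4 (0.20) with the leukocyte reference scaling, Itgb2 (0.012) and Itga4 (0.002) without PTEC DN RAR replicate 3, and Itgb5 (-0.001) without Cre- control replicate 2. Leaving out each mouse gave -0.174 to 0.012 for Itgb2, -0.139 to 0.002 for Itga4 and -0.001 to 0.162 for Itgb5. The same fits gave 0.145 to 0.391 for Itgax and 0.074 to 0.253 for Itgav. Ptprc also changed sign with the leukocyte reference scaling (0.13). The replicate numbers join different mice (correlations of deviations -0.01, 0.21 and 0.03, with 2 of 6 libraries closest to their own number), and with a replicate block 2606 genes were lower and 3612 higher, with 3 members lower and 0 higher. Groups of 3 limit what can be called, and no exact test could pass 0.05. No batch is labelled, so batch was not tested.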
